A study of Mus musculus with 6 samples.

Results

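The variable (V) segments of the mouse immunoglobulin kappa light chain were described in 6 bulk RNA-seq libraries of bone marrow cells. Segments were taken as the rows annotated as immunoglobulin V genes, not pseudogenes, whose name begins with Igkv, which gave 100 segments in 20 subfamilies, of 55487 genes in all. A further 60 rows annotated as kappa V pseudogenes were kept apart. The cells were long-term hematopoietic stem cells (LT-HSCs), sorted as Lineage-, Sca-1+, c-Kit+, Flk2- and CD34-, from wild-type mice that had not been irradiated. There were 3 libraries from carnosine-treated mice and 3 from saline-treated mice. Carnosine is a dipeptide of beta-alanine and histidine. The dose, the length of treatment, the age and sex of the mice and the number of mice behind each library were not stated in the sources used here. Both groups share genotype, tissue and gate and differ in the treatment alone, as far as the labels say.

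A kappa chain gene is assembled in developing B cells, where the RAG recombinase joins one V segment to one of the J segments that lie next to the constant gene Igkc. The joined V and J exon is transcribed and spliced to Igkc, so each B lineage clone carries mainly one kappa V segment in its mature transcript, and antibody-secreting plasma cells hold very large amounts of it. Segments lie in both directions along the locus, and those in the opposite direction to the J segments join by inversion. Unjoined V segments can be transcribed at low levels before joining. Segments are grouped into subfamilies by sequence likeness, and stem cells are not a site of light chain joining.

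All 100 segments lie on chromosome 6 of GRCm38, between 67555497 and 70704177, a span of 3148.681 kb that ends before Igkj1 (70722562 to 70722599). The deposited coordinates of all 100 equal those of GENCODE M21. Of the segments, 62 run opposite to the Igkj segments and 38 run in the same direction. The 3′ end of the V exon is shown because it holds the germline bases that enter the joint. Below, the last bases of 9 segments that the results turn on are given 5′ to 3′ on the coding strand, from the GENCODE M21 transcripts, with the bases after the codon of the conserved second cysteine in capitals. The capitals are the germline bases that enter the complementarity-determining region at the V-J joint.
Igkv1-117: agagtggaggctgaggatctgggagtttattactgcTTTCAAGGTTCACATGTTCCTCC
Igkv10-96: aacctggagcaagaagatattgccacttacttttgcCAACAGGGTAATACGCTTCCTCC
Igkv8-19: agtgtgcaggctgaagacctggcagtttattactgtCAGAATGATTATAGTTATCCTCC
Igkv9-120: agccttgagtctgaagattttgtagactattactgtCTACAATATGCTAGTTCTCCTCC
Igkv1-88: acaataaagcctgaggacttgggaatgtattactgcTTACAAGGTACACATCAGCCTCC
Igkv4-90: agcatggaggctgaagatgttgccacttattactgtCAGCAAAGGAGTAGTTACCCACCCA
Igkv4-57: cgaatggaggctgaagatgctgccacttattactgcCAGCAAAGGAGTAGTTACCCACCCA
Igkv3-2: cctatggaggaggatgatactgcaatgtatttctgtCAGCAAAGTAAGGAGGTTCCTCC
Igkv4-63: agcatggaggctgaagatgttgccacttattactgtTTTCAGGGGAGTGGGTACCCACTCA
The gene coordinates are chr6:68121046-68121827 (plus strand) for Igkv1-117, chr6:68631963-68632442 (minus) for Igkv10-96 and chr6:70340876-70341453 (minus) for Igkv8-19. Igkv9-120 lies at chr6:68049983-68050456 (plus), Igkv1-88 at chr6:68862265-68863031 (minus) and Igkv4-90 at chr6:68807179-68807708 (minus). Igkv4-57 lies at chr6:69575975-69576500 (minus), Igkv3-2 at chr6:70698449-70699067 (plus) and Igkv4-63 at chr6:69377944-69378472 (minus). Igkv4-57 and Igkv4-90 share the same capital letters.

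Many segments are close copies, which bears on how reads could be assigned. Over the 250 bases up to the cysteine codon, measured in 97 segments, the identity to the nearest other segment had a median of 95.2% and ranged from 66.4% to 98.8%. Of all 50-base windows of a segment's transcript, a median of 75.2% occurred in no other kappa V transcript, and in 24 segments every window was unique. The handling of reads that fit several copies is not given in the sources used here, so counts of close copies could be split between them. Near neighbours are shown as 3 pairs over the 120 bases that end with the cysteine codon, with the bases that differ in capitals, because the members of each pair had different values. These pairs were chosen after their values were seen.
Igkv8-19: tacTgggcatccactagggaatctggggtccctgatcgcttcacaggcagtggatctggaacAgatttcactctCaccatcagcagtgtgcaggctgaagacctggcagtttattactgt
Igkv8-28: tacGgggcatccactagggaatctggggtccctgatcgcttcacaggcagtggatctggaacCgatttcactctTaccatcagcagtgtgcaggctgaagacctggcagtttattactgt
Igkv1-117: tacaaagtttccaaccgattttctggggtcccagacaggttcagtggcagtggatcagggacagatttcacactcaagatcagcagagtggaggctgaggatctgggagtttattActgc
Igkv1-110: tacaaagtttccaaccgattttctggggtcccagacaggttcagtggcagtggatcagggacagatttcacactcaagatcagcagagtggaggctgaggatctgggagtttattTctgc
Igkv9-124: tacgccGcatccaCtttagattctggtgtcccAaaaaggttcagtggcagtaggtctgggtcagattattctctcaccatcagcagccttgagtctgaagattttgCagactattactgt
Igkv9-120: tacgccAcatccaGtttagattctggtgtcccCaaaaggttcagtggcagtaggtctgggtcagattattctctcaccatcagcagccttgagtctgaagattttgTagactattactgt
Igkv8-28 lies at chr6:70143593-70144166 (minus), Igkv1-110 at chr6:68270485-68271267 (plus) and Igkv9-124 at chr6:67942074-67942540 (minus). Over these 120 bases the Igkv8-19 and Igkv8-28 sequences differ at 3 positions, the Igkv1-117 and Igkv1-110 sequences at 1 and the Igkv9-124 and Igkv9-120 sequences at 4.

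The libraries held 10442112 to 13251332 counts in the carnosine group and 10304539 to 13210166 in the saline group, so 3 counts correspond to 0.226 to 0.291 CPM, the count scaled to a library size of 1e+06. Of 55487 genes, 15298 passed the filter on low counts and were tested. Transcripts of Kit, the receptor used in the sort, stood at 523 to 541 CPM in carnosine and 538 to 555 CPM in saline libraries. Transcripts of the proteins that the gate excludes were also present. Flt3, which encodes Flk2, had 764 to 786 CPM in carnosine and 801 to 831 CPM in saline libraries, and Cd34 had 851 to 879 CPM in carnosine and 836 to 884 CPM in saline libraries. RNA levels do not measure surface protein, and the cell mix of the sort was not tested. All 10 genes of the LT-HSC and gate list were detected, and their sum was 2586 to 2756 CPM in carnosine and 2645 to 2671 CPM in saline libraries. In the erythroid list the sum was 117 to 126 CPM in carnosine and 35.1 to 43.1 CPM in saline libraries, with 4 of 6 genes called higher, all of them globin genes, while Klf1, an erythroid factor, was not called (edgeR adjusted p = 0.856). In the neutrophil list the sum was 328 to 336 CPM in carnosine and 546 to 558 CPM in saline libraries, and 2 of 4 tested genes were called lower. These were Mpo, with a mean of 306 CPM in carnosine and 516 CPM in saline libraries, and Elane, both of which myeloid progenitors also express. S100a8 and S100a9 of mature neutrophils were not called (edgeR adjusted p = 0.814 and 0.413). In the T and NK cell list the sum was 81.5 to 85.4 CPM in carnosine and 89.4 to 93.6 CPM in saline libraries, with 1 of 4 tested genes called lower. Across all genes tested, 9.51% were called higher and 8.39% lower in carnosine. The T and NK cell count is too small to set apart from these shares. The part of the genes of these lists in the kappa result was not tested.

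Kappa V transcripts were several times higher in the carnosine libraries. The summed kappa V level was 1075, 1124 and 1078 CPM in carnosine libraries 1, 2 and 3, against 297, 311 and 323 CPM in saline libraries 1, 2 and 3. As a share of all counts this was 0.107%, 0.112% and 0.107% in carnosine, against 0.0298%, 0.0311% and 0.0322% in saline libraries. The groups were far apart, and the spread within each was small. The group means were 1092 ± 27.7 CPM in carnosine and 310.3 ± 12.6 CPM in saline libraries (SD, n = 3 each), a log2 ratio of 1.82. In bulk libraries, fewer cells of a type and less RNA per cell cannot be told apart. Nothing in the labels says that the libraries of a group came from separate mice, so p-values measure the spread between these libraries, which may be technical.

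Igkc, the constant exon to which every kappa V exon is spliced, gave 884, 909 and 910 CPM in carnosine libraries, against 273, 283 and 273 CPM in saline libraries. It rose by 1.71 ± 0.03 on the log2 scale (SE, n = 3 per group, edgeR quasi-likelihood test with Benjamini-Hochberg adjustment, adjusted p = 5.82e-08). By deposited FPKM, a value scaled for gene length, the summed kappa V segments stood at 1.59, 1.62 and 1.55 times the FPKM of Igkc in carnosine libraries, against 1.42, 1.42 and 1.53 times in saline libraries. These ratios did not overlap, but with the length of the longest annotated transcript they were 1.75, 1.77 and 1.70 in carnosine libraries, against 1.57, 1.59 and 1.71 in saline libraries, and overlapped. The 60 pseudogenes together gave 10, 9 and 7 counts in carnosine libraries and 2, 2 and 0 counts in saline libraries, and none passed the filter. The Igkj segments are short exons and gave 0 to 2 counts in any library.

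The lengths behind the FPKM values bear on levels compared between segments. Deposited counts and FPKM together imply lengths of 347 to 741 bases for the segments with a count. For 60 of these the implied length equals that of the longest GENCODE M21 transcript within 1 base. For the other 31 it is over 600 bases, although their longest transcripts have 338 to 382 bases. All 31 have 2 annotated transcripts, and in 24 the implied length equals the sum of both within 1 base. The deposited FPKM of these 31 segments is thus lower than the longest transcript would give. Counts per base of the longest transcript, an alternative chosen after seeing the data, shared 9 of the 10 highest segments with FPKM, with Igkv8-19 in place of Igkv6-15.

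**Figure D1:**
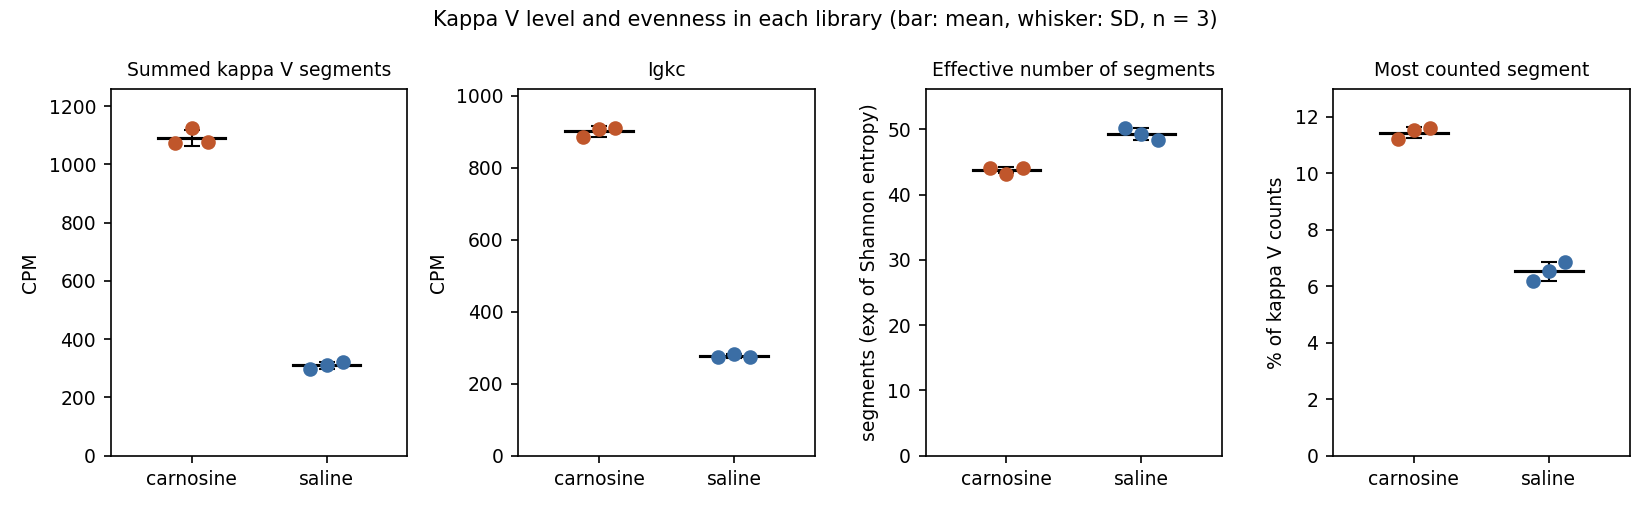
Summed kappa V level (CPM), Igkc level (CPM), effective number of segments and share of kappa V counts held by the most counted segment (%), one point per library, carnosine left and saline right, with the mean as a bar and the SD as a whisker (n = 3 each). Carnosine libraries lie above saline libraries in both levels (1075 to 1124 against 297 to 323 CPM for kappa V), below them in the effective number (43.2 to 44.1 against 48.3 to 50.2) and above them in the share of the top segment.

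Most segments moved with the sum. Of the 100 segments, 9 had no count in any library, 17 had counts but did not pass the filter on low counts, and 74 were tested. By edgeR's quasi-likelihood test, adjusted over all genes at a threshold of 0.05, 53 of the 74 were higher and 4 were lower in carnosine, and 17 were not called. Across all genes tested the shares were 9.51% called higher and 8.39% called lower. A segment can pass the filter through the group where it is high alone, so the tested segments are not a sample of all of them. Without such a filter, every carnosine library lay above every saline library for 65 of the 100 segments and below for 10. A further 16 with counts overlapped. The matching shares over all genes without the filter are not given here. These counts include segments near the floor, such as Igkv8-26 (2, 2 and 1 counts in carnosine, 0 in saline libraries), named after its values were seen. Among the 74 tested, 58 lay above and 6 below without overlap, where 19.7% of all genes tested lay above and 19.0% below. The log2 fold change of the 74 had a median of 1.81 and quartiles of 0.67 and 2.40, beside a median of 0.000925 over all genes tested.

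The plot of segment levels in carnosine against saline shows most points above the line of equal level and a smaller group on or under it. The called rises ran from 0.66 on the log2 scale upward, and the 17 segments that were not called ran from -1.19 to 2.04. Across the 70 tested segments with counts in saline, the log2 fold change had a Pearson r of -0.16 and a Spearman rho of -0.17 with the saline level. With the 4 segments at 0 in saline included, these were -0.59 and -0.30 (n = 74). This is a description across segments, which share libraries, and the saline level enters both quantities.

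**Figure D2:**
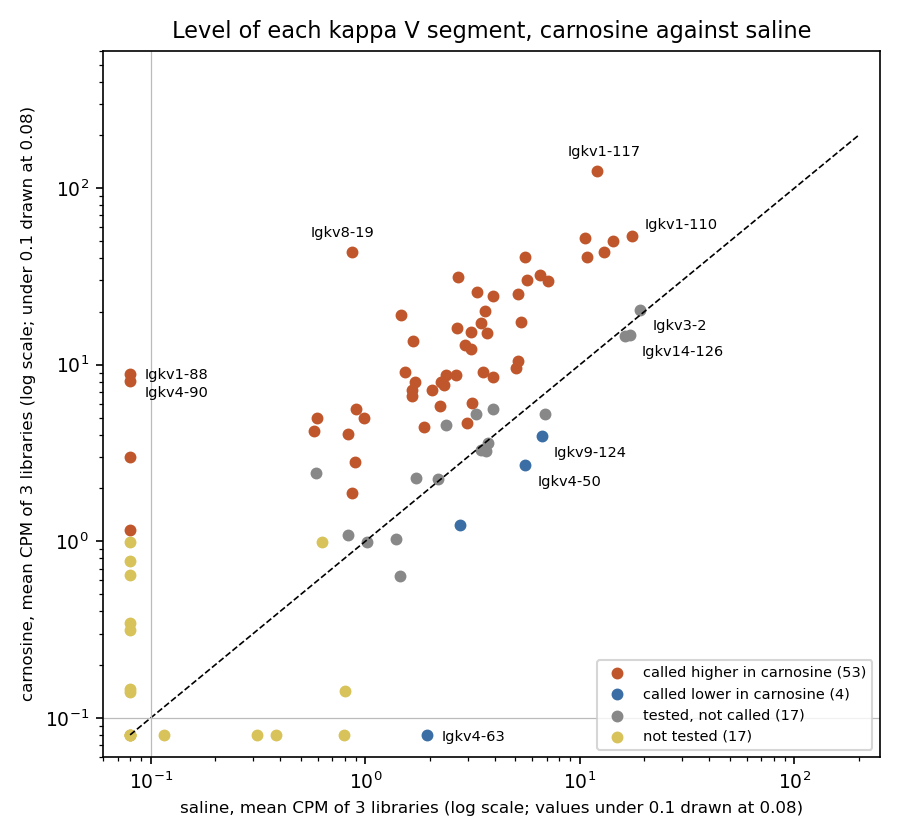
Mean level of each segment with a count in carnosine (vertical axis, CPM, n = 3) against saline (horizontal axis, CPM, n = 3), both on log scales, with means under 0.1 drawn at 0.08 and the dashed line marking equal levels. Of the tested segments, 53 were called higher and 4 lower in carnosine, and 17 were not called.

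Igkv1-117 was the highest segment over the 6 libraries by FPKM, with a mean of 169, and by counts per base of the longest transcript. It gave 120, 129 and 125 CPM in carnosine libraries, against 11.4, 13.3 and 11.1 CPM in saline libraries. The groups were wide apart, with little spread in either. It rose by 3.39 ± 0.07 on the log2 scale (SE, edgeR adjusted p = 3.59e-07). Igkv1-117 alone made up 14.4% of the net difference in summed kappa V level between the groups, which was 782 CPM.

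Its near copy Igkv1-110, with 134 FPKM in carnosine and 43.5 FPKM in saline on average, moved less. It gave 48.0, 69.8 and 43.9 CPM in carnosine libraries, against 17.2, 17.7 and 17.5 CPM in saline libraries. Carnosine library 2 stood apart from the other 2 carnosine libraries, and all 3 were above saline. It rose by 1.62 ± 0.17 on the log2 scale (SE, edgeR adjusted p = 0.000965). Only 50.1% of the 50-base windows of Igkv1-117 and 49.1% of those of Igkv1-110 occur in no other kappa V transcript, so the split between the pair is uncertain.

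Igkv10-94 and Igkv10-96, the leading members of a 3-segment subfamily, followed Igkv1-117 in FPKM together with Igkv1-110. Igkv10-94 gave 51.8, 49.5 and 48.8 CPM in carnosine libraries, against 15.1, 13.6 and 14.3 CPM in saline libraries. Igkv10-96 gave 52.2, 53.4 and 51.2 CPM in carnosine libraries, against 8.18, 10.6 and 13.0 CPM in saline libraries. Both were higher in every carnosine library, by 1.81 ± 0.07 for Igkv10-94 (adjusted p = 6.28e-06) and by 2.29 ± 0.14 for Igkv10-96 (adjusted p = 6.74e-05) on the log2 scale (SE, edgeR). Among the rest of the 10 segments highest by FPKM, Igkv8-30 (1.75), Igkv5-43 (1.90), Igkv5-48 (2.89), Igkv4-57 (2.30) and Igkv6-15 (2.42) also rose, with these log2 fold changes. Their edgeR adjusted p-values lay between 2.53e-06 for Igkv5-48 and 0.000134 for Igkv5-43.

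Igkv3-2 was the one segment of those 10 that was not called. It gave 19.7, 19.9 and 21.8 CPM in carnosine libraries, against 18.4, 16.5 and 22.1 CPM in saline libraries. The groups overlapped, at 0.10 ± 0.12 on the log2 scale (SE, edgeR adjusted p = 0.578). It was the most counted segment of saline libraries 1 and 3, and it lies 23.5 kb from Igkj1. Igkv14-126, the most counted segment of saline library 2, gave 14.1, 14.8 and 15.1 CPM in carnosine libraries, against 13.9, 20.3 and 17.0 CPM in saline libraries. These groups overlapped as well (log2 fold change -0.22 ± 0.14, SE, edgeR adjusted p = 0.317). Segments that led the saline libraries were thus not all among those that rose.

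The largest fold changes with counts in both groups belonged to segments that were rare in saline. Igkv8-19 gave 41.1, 47.2 and 42.6 CPM in carnosine libraries, against 0.962, 0.874 and 0.758 CPM in saline libraries. These saline levels were 10, 9 and 10 counts, and no carnosine library was near them. It rose by 5.65 ± 0.12 on the log2 scale (SE, edgeR adjusted p = 3.59e-07). Its near copy Igkv8-28 gave 4.15, 4.42 and 5.003 CPM in carnosine libraries, against 1.15, 3.69 and 2.27 CPM in saline libraries, and was not called (log2 fold change 0.93 ± 0.33, SE, edgeR adjusted p = 0.0971). Without saline library 2, the highest of its group, Igkv8-28 would be called as well (log2 fold change 1.36, edgeR adjusted p = 0.0333). Of the 50-base windows, 75.4% of Igkv8-19 and 81.9% of Igkv8-28 occur in no other kappa V transcript.

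Igkv9-120 gave 15.8, 20.7 and 20.7 CPM in carnosine libraries, against 1.25, 1.46 and 1.67 CPM in saline libraries. It rose by 3.69 ± 0.18 on the log2 scale (SE, edgeR adjusted p = 2.23e-05), and no library of one group came near the other group. Its near copy Igkv9-124, named after its values were seen, went the other way. Igkv9-124 gave 3.81, 3.75 and 4.25 CPM in carnosine libraries, against 6.25, 5.83 and 7.81 CPM in saline libraries, and was called lower (log2 fold change -0.75 ± 0.16, SE, edgeR adjusted p = 0.0177). That call was lost by DESeq2 (adjusted p = 0.0534) and by edgeR without carnosine library 1 (adjusted p = 0.0577), carnosine library 2 (0.0575) or saline library 3 (0.0523). Other large rises, in log2 fold change, were Igkv8-27 (3.51), Igkv13-84 (3.05), Igkv2-109 (3.04) and Igkv12-41 (2.94), each with edgeR adjusted p of 8.37e-05 or less.

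Some segments were seen in carnosine libraries alone. Igkv1-88 gave 110, 90 and 114 counts in carnosine libraries and 0 counts in each saline library. Set against a floor of 3 counts over the saline group, it was at least 99.5-fold higher. Igkv4-90 gave 107, 100 and 78 counts in carnosine libraries and 0 counts in each saline library, at least 90.3-fold higher. All 50-base windows of both segments occur in no other kappa V transcript. Igkv4-57, which shares the capital bases of Igkv4-90 printed above, had counts in every library of both groups (5.68 to 6.99 CPM in saline).

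In all, 13 segments had counts in carnosine and none in saline libraries, and 2 the reverse. Named after their values were seen, Igkv1-99 gave 108 counts over the carnosine group (at least 34.2-fold higher) and Igkv5-37 gave 41 (at least 13.0-fold higher). These 4 segments are among the 53 called higher, and they passed the filter on low counts through the carnosine libraries alone. The other 9 did not pass the filter and held 1 to 35 counts in all. Segments with few counts in a group can also have passed through the other group alone. Examples are Igkv8-19 in saline (10, 9 and 10 counts) and Igkv4-63 in carnosine (3 counts in all). The reverse pair was Igkv1-133, with 10, 10 and 6 counts in saline libraries (at least 9.12-fold lower in carnosine), and Igkv1-132, with 4, 4 and 5 counts in saline libraries (at least 4.56-fold lower in carnosine). Neither was tested. The kappa V total of a carnosine library was 11687 or more and that of a saline library 4255 or less, and a rare segment is more easily seen in the larger total.

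The clearest fall was that of Igkv4-63. It gave 0, 0.0962 and 0.152 CPM in carnosine libraries, which is 3 counts in all, against 1.64, 2.23 and 1.97 CPM in saline libraries. Every saline library was well above every carnosine library (log2 fold change -4.37 ± 0.50, SE, edgeR adjusted p = 0.00132). Igkv4-50, named after its values were seen, gave 3.07, 2.79 and 2.27 CPM in carnosine libraries, against 6.16, 4.95 and 5.61 CPM in saline libraries, and fell by 1.04 on the log2 scale (edgeR adjusted p = 0.00676). Igkv3-7 gave 1.08, 1.25 and 1.36 CPM in carnosine libraries, against 2.12, 3.50 and 2.65 CPM in saline libraries (log2 fold change -1.15, edgeR adjusted p = 0.0205). That call did not hold by DESeq2 (adjusted p = 0.0754), nor by edgeR without any one of carnosine libraries 1, 2 and 3 and saline libraries 2 and 3 (adjusted p = 0.0515 to 0.0698). Igkv4-58 had a log2 fold change of -1.19 and was not called (edgeR adjusted p = 0.0575).

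By subfamily, called rises outnumbered called falls in every subfamily with 3 or more tested segments. In Igkv1, all 5 tested of 10 members were called higher, with a median log2 fold change of 3.39. Its summed level was 200 ± 18.2 CPM in carnosine and 36.5 ± 1.08 CPM in saline libraries (SD, n = 3 each). Of its untested members, Igkv1-133, Igkv1-132 and Igkv1-122, named after their values were seen, went the other way without overlap. They gave 0, 0 and 5 counts over the carnosine group, against 26, 13 and 27 over the saline group. With no filter on low counts these were called lower. In Igkv8, 5 of 6 tested were higher and the sum was 136 ± 4.17 CPM in carnosine and 21.7 ± 2.19 CPM in saline libraries. In Igkv12 all 6 members, in Igkv10 all 3, and in Igkv6 7 of 9 were called higher. In Igkv4, the largest subfamily with 26 members, 10 of 18 tested were higher and 2 lower. In Igkv3, 3 of 7 tested were higher and 1 lower, and the sum was 52.5 ± 2.69 CPM in carnosine and 36.01 ± 3.12 CPM in saline libraries. In Igkv14, 1 of 3 tested was higher, and the sum was 33.6 ± 1.503 CPM in carnosine and 23.9 ± 2.61 CPM in saline libraries. The single Igkv16 segment, Igkv16-104, was not called (log2 fold change -0.18, edgeR adjusted p = 0.505).

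As shares of kappa V counts, Igkv1 and Igkv8 were higher and Igkv3 and Igkv14 lower in the carnosine libraries. Igkv1 held 17.6%, 19.7% and 17.6% in carnosine libraries, against 12.1%, 12.1% and 11.05% in saline libraries. Igkv8 held 12.3%, 12.3% and 13.0% in carnosine libraries, against 6.54%, 7.06% and 7.38% in saline libraries. Igkv3 held 4.93%, 4.42% and 5.10% in carnosine libraries, against 11.8%, 10.8% and 12.2% in saline libraries. In none of these subfamilies did the groups overlap. By FPKM the Igkv8 shares were 10.1% in carnosine and 6.79% in saline libraries, and by counts per base of the longest transcript 12.6% in carnosine and 7.00% in saline libraries. Igkv14 held 2.99%, 2.99% and 3.26% in carnosine libraries, against 7.25%, 8.59% and 7.26% in saline libraries. Igkv4 was the most used subfamily of the saline libraries, at 16.0% on average, and held 12.6% in carnosine libraries. Igkv1 was the most used subfamily of the carnosine libraries. Single segments weighed heavily in these shifts. On average Igkv1-117 held 11.4% in carnosine and 3.86% in saline libraries, while Igkv1-110 held 4.92% in carnosine and 5.64% in saline libraries. Igkv8-19 held 3.99% in carnosine and 0.280% in saline libraries, and Igkv8-27 held 2.88% and 0.861% in the same order. Igkv3-2 held 1.88% in carnosine and 6.12% in saline libraries, and Igkv14-126 held 1.34% and 5.48% in that order. Shares add up to a whole, so a rise of one lowers the others, and they are given with no test.

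Smaller shifts without overlap were seen in most other subfamilies. Shares were higher in carnosine for Igkv2, Igkv6, Igkv10, Igkv12 and Igkv15, for instance 2.26% in carnosine and 1.27% in saline libraries for Igkv15. Shares were lower in carnosine for Igkv5, Igkv13 and Igkv16, for instance 0.295% in carnosine and 1.18% in saline libraries for Igkv16. The Igkv5 shares were 9.63% in carnosine and 11.2% in saline libraries, and with FPKM in place of counts they were 9.96% in carnosine and 9.97% in saline libraries. Igkv9 held 2.20% in carnosine and 2.81% in saline libraries by counts, but 2.29% in carnosine and 2.04% in saline libraries by FPKM. With the longest transcript as length the direction was that of the counts, at 9.72% in carnosine and 11.4% in saline libraries for Igkv5 and 2.30% in carnosine and 2.93% in saline libraries for Igkv9. Igkv17 and Igkv19 overlapped between the groups, Igkv11 was at 0.059% in carnosine with no count in saline libraries, and Igkv7, Igkv18 and Igkv20 had no counts.

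**Figure D3:**
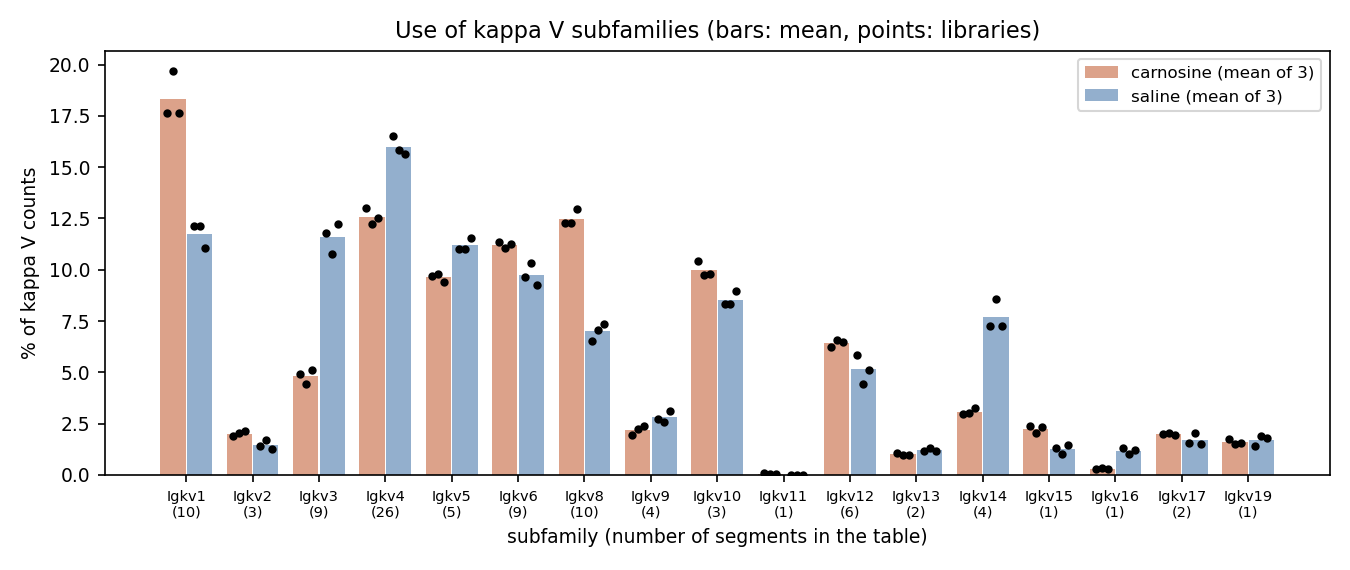
Share of kappa V counts held by each subfamily (%), carnosine left and saline right in each pair, with bars for the mean of 3 libraries, points for libraries and the number of segments in brackets. Igkv1 and Igkv8 stand higher in carnosine (18.3% and 12.5%, against 11.8% and 6.99% in saline), and Igkv3 and Igkv14 stand lower (4.82% and 3.08%, against 11.6% and 7.70% in saline).

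Usage was spread less evenly over the segments in carnosine libraries. The effective number of segments, the exponential of the Shannon entropy of their counts, was 44.1, 43.2 and 44.0 in carnosine libraries, against 50.2, 49.2 and 48.3 in saline libraries. Pielou evenness, on which 1 would mean equal use of all segments with a count in any library, was 0.839, 0.835 and 0.839 in carnosine libraries, against 0.868, 0.864 and 0.860 in saline libraries. The groups did not overlap in either measure. The inverse Simpson number, which weights the most used segments more, was 29.2, 28.0 and 28.8 in carnosine libraries, against 37.4, 36.1 and 35.2 in saline libraries. By FPKM the effective number was 40.8 to 41.5 in carnosine and 45.1 to 46.9 in saline libraries, and by counts per base of the longest transcript 43.9 to 44.7 in carnosine and 48.3 to 50.3 in saline libraries.

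The size of this gap in evenness depended on Igkv1-117. Igkv1-117 held 11.2%, 11.5% and 11.6% of kappa V counts in carnosine libraries, whereas the most counted segment held 6.18%, 6.53% and 6.86% in saline libraries. Left out of the counts, a choice made after seeing the data, it took the difference in effective number with it to a large extent. The effective number was then 47.9, 47.0 and 48.2 in carnosine libraries, against 49.5, 48.7 and 47.5 in saline libraries, and the groups overlapped. The share of the 5 most counted segments of each library was 29.2% to 31.1% in carnosine and 26.7% to 27.3% in saline libraries. Without Igkv1-117 that share was 24.4% to 26.5% in carnosine and 27.8% to 28.6% in saline libraries. Igkv1-117 was the most counted segment of every carnosine library and of no saline library, so leaving it out evens the carnosine libraries most. The segments that led the saline libraries were not left out in turn, so this turn in direction cannot show where the difference sits.

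Lower evenness did not mean fewer segments. Counts were found for 85, 84 and 86 segments in carnosine libraries, against 75, 76 and 77 in saline libraries. Scaled down to the lowest kappa V total, 3091 counts, 79.1, 80.0 and 80.0 segments would be seen in carnosine libraries, against 75, 76.0 and 76.6 in saline libraries. Carnosine libraries thus held more segments at equal depth, with more of the counts on a few of them.

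**Figure D4:**
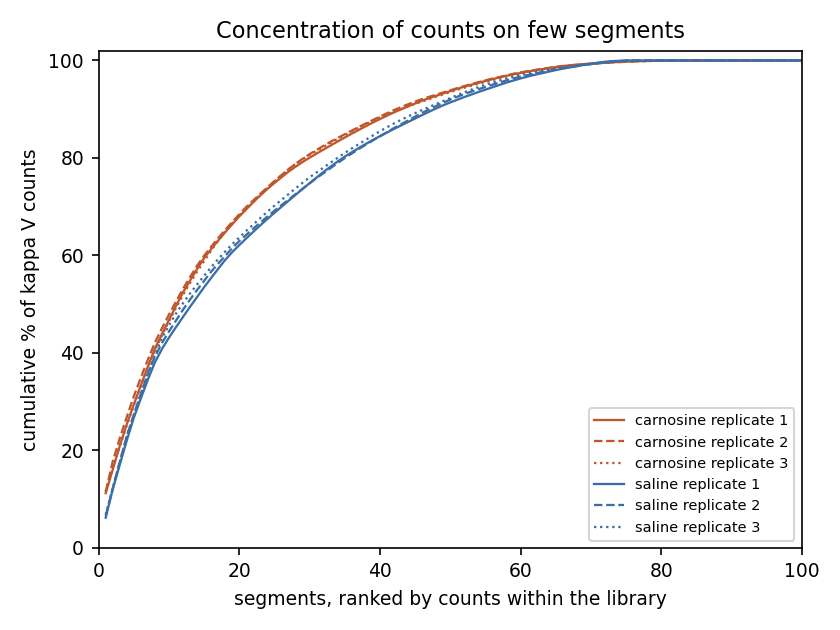
Cumulative share of kappa V counts (%) over the segments of a library ranked from the most to the least counted, one line per library. The 3 carnosine lines start higher, at 11.2% to 11.6% against 6.18% to 6.86% in saline, and run above the 3 saline lines over most of the ranks.

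Libraries of one group used the segments in nearly the same proportions. The overlap of usage, summed as the smaller of 2 libraries' shares over all segments, was 94.8% to 95.5% between carnosine libraries and 89.9% to 91.6% between saline libraries. Between a carnosine and a saline library it was 67.3% to 69.4% over the 9 pairs. The lowest overlap within a group thus lay far above the highest between groups. Counts of segments varied between the libraries of a group by 1.65 times (carnosine) and 1.49 times (saline) what random sampling of reads gives, as chi-square per degree of freedom. Over all genes the same figure was 6.12 in carnosine and 5.51 in saline libraries. This figure can grow with the counts of a gene. Segments and all genes were not matched for level, so no difference in spread is read from these figures. Across all 100 segments the mean share in carnosine and that in saline were related by Pearson r = 0.64 and Spearman rho = 0.79, as a description across segments.

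Rises were called all along the locus. They ran from the J-near end, with 10 of 15 tested segments higher and 1 lower within 500 kb of Igkj1, to the far end, where both tested segments beyond 3000 kb were higher. The lowest median among the 500-kb blocks up to 3000 kb was 1.21 on the log2 scale, between 1000 and 1500 kb, where 7 of 12 tested were higher and 2 lower. The highest was 2.29, between 2000 and 2500 kb, with 9 of 11 tested higher. Across the 70 tested segments with counts in saline, the distance from Igkj1 and the log2 fold change had a Pearson r of 0.02 and a Spearman rho of 0.01, given as a description. Of segments opposite to the J segments, 34 of 47 tested were higher and 3 lower, with a median of 1.81. Of those in the same direction, 19 of 27 were higher and 1 lower, with a median of 1.89. Opposite segments held 63.0%, 61.3% and 61.8% of kappa V counts in carnosine libraries, against 59.1%, 58.9% and 59.95% in saline libraries.

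**Figure D5:**
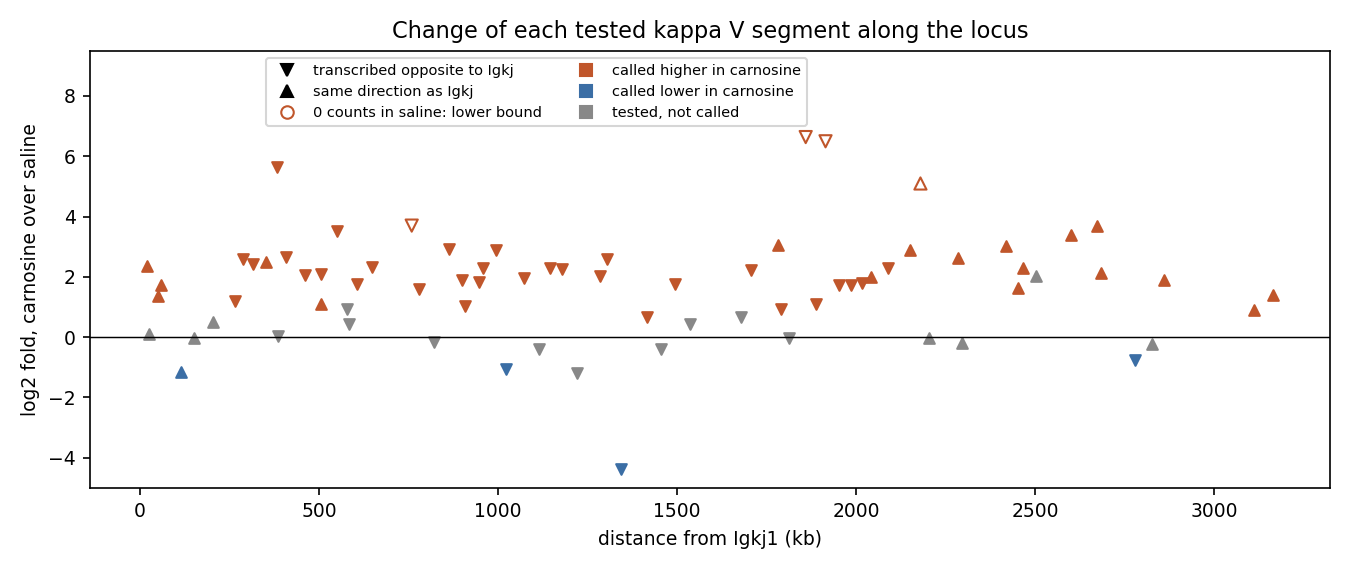
Log2 fold change (carnosine over saline) of the 74 tested segments against distance from Igkj1 in kb, with triangles pointing up for segments that run the same way as the Igkj segments and down for those opposite to them, and open symbols for lower bounds where saline had 0 counts. Called rises lie along the whole locus, and the 4 called falls lie among them.

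Other antibody gene segments moved in the same direction. Of 113 heavy chain V segments, 79 were tested, 68 were called higher and 1 lower, with a median log2 fold change of 2.03. Across all genes tested, 9.51% were called higher and 8.39% lower. Lambda light chain genes, the alternative to kappa, were called higher in all 5 tested of 9, and 1 of the 9 was at 0 in all libraries. Iglv1 gave 70.0, 67.5 and 69.7 CPM in carnosine libraries, against 37.5, 39.3 and 40.0 CPM in saline libraries, and rose by 0.83 ± 0.05 on the log2 scale (SE, edgeR adjusted p = 6.46e-05). Iglc1 rose by 0.48, Iglc2 by 1.21, Iglc3 by 1.24 and Iglv2 by 1.79 on the log2 scale. A difference between kappa and lambda folds was not tested. Of the surrogate light chain genes, which stand in for the light chain in pre-B cells, none of 3 tested was called, among them Vpreb1 (-0.36, adjusted p = 0.242) and Igll1 (0.11, adjusted p = 0.706 by edgeR). So few tested genes cannot be set apart from the shares over all genes.

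Genes of antibody-secreting cells were partly higher. In the plasma cell list, 4 of 10 tested were called higher and 1 lower, beside 9.51% called higher and 8.39% lower over all genes tested. The count of falls is near that share. None of the 11 members of the list was at 0 in all libraries. The summed level of the list was 474 to 733 CPM in carnosine and 261 to 347 CPM in saline libraries. Jchain, which links secreted antibody units, gave 296, 536 and 537 CPM in carnosine libraries, against 157, 89.7 and 161 CPM in saline libraries. Its groups did not overlap, but carnosine library 1 and saline library 2 were each far below the rest of their group (log2 fold change 1.74 ± 0.29, SE, edgeR adjusted p = 0.00649). Irf4, a factor needed for plasma cells, rose by 0.65 (adjusted p = 0.00464) and Mzb1, a chaperone of secretion, by 0.75 (adjusted p = 0.0136) on the log2 scale by edgeR, and the Mzb1 call was lost by DESeq2 (adjusted p = 0.0635). Prdm1, named after its values were seen, had a log2 fold change of 1.31 (edgeR adjusted p = 0.0444), a call lost by DESeq2 (adjusted p = 0.0569) and without any one library but saline library 3 (adjusted p = 0.0784 to 0.122). Sdc1, the plasma cell surface protein, fell by 0.44 on the log2 scale (edgeR adjusted p = 0.0115). Xbp1, which drives the secretory programme, had a log2 fold change of 0.09 (edgeR adjusted p = 0.692). The part of plasma cell transcripts in the kappa result was not tested.

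No gene of the B lineage or pro-B and pre-B lists was called higher. Over all genes tested, 9.51% were called higher and 8.39% lower. With 7 tested genes in each list, the lack of a called rise cannot be set apart from the share called higher. In the B lineage list none of 7 tested was called higher and 2 were lower, with sums of 431 to 449 CPM in carnosine and 361 to 472 CPM in saline libraries. Most of that sum was Ptprc, which all leukocytes express, with means of 398 CPM in carnosine and 380 CPM in saline libraries. Among the falls was Ebf1, a B lineage factor, at 3.22 CPM in carnosine and 5.76 CPM in saline libraries on average (log2 fold change -0.82, edgeR adjusted p = 0.042), and it was lost by DESeq2 (adjusted p = 0.0783) and without any one of the 6 libraries (adjusted p = 0.0600 to 0.119). Cd79a, a signalling chain of the B cell receptor, had a log2 fold change of 0.30 and was not called (edgeR adjusted p = 0.329). In the pro-B and pre-B list 3 of 7 tested were lower and none higher, and the sum was 384 to 404 CPM in carnosine and 474 to 489 CPM in saline libraries. Most of that sum was Dntt, which adds bases at joints, with means of 374 CPM in carnosine and 452 CPM in saline libraries. Dntt fell by 0.27 (adjusted p = 0.00118), and the recombinase gene Rag1 fell by 0.82 (adjusted p = 0.0219) on the log2 scale by edgeR. Rag1 stood at 3.17 to 4.23 CPM in carnosine and 5.23 to 7.02 CPM in saline libraries, and its call was lost without any one of carnosine libraries 2 and 3 and saline libraries 1 and 2 (adjusted p = 0.0684 to 0.0717). Rag2, its partner, had a log2 fold change of -0.74 (edgeR adjusted p = 0.0449), a call lost by DESeq2 (adjusted p = 0.204) and without any one of the 6 libraries (adjusted p = 0.0742 to 0.137).

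Of the 13 genes of V(D)J recombination and end joining, 2 were higher and 4 lower, and of 20 regulators of the kappa locus 2 were higher and 3 lower, which for the regulators is near the shares over all genes tested (9.51% higher and 8.39% lower). The falls include Rag1 and Rag2 among the joining genes and Ebf1 among the regulators, with the losses given above. Among the regulators, Pou2af1, a B cell coactivator of antibody gene promoters, gave 9.12, 6.93 and 8.57 CPM in carnosine libraries, against 3.56, 5.44 and 3.18 CPM in saline libraries (log2 fold change 1.03, edgeR adjusted p = 0.0179). Its groups did not overlap, but the call was lost without any one of carnosine libraries 1 and 3 and saline libraries 1 and 3 (adjusted p = 0.0547 to 0.0619). Pou2f2, the partner that binds those promoters, fell by 0.32 on the log2 scale (edgeR adjusted p = 0.0091).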

How the data were processed

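Poly-A RNA was sequenced from 6 sorted LT-HSC samples, 3 carnosine and 3 saline, as stranded paired-end libraries, per the labels' protocols. The authors deposited 1 table with whole-number counts and FPKM values (fragments scaled for gene length and library size) for each gene and library, per the file headers. Per the submitters' processing notes, the tools were CASAVA 1.8, HISAT2, StringTie and edgeR, and the build was GRCm38. The annotation release, the strand setting and the handling of reads that match several copies were not stated in the sources used here. Gene names, coordinates and gene types are those of the deposited table, and sequences were read from GENCODE M21 transcripts.

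Groups were taken from the treatment labels. Counts were tested over all genes with edgeR 4.0.16 in R 4.3.3 (TMM scaling, filterByExpr on the group, quasi-likelihood F test, two-sided, Benjamini-Hochberg adjustment, threshold 0.05), with all 6 libraries and no covariate. CPM values were scaled by TMM, with factors between 0.998 and 1.00. The mean, SD and overlap of groups were computed per segment, and effective number, Pielou evenness and the unbiased inverse Simpson number were computed per library on the counts over segments. Summed levels, shares and evenness were given no test. Gene lengths were taken from the ratio of deposited counts to deposited FPKM and compared with the transcripts. The subfamily is the number before the hyphen of a segment's name. Floors cover counting error only, and counts of PCR-amplified fragments are not independent molecules. Fits were tested on simulated data. Depth is given with the results.

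Segments named were the 10 highest by mean FPKM, the 10 largest called changes at an average log2 CPM of at least 1 without overlap between groups, the 3 lowest log2 fold changes and the highest of each subfamily. Others are said to be named after their values were seen. From other gene lists, up to 4 tested members by p and 3 by level were eligible. The segments and lists were chosen with earlier results of these data known. Alternatives were DESeq2 1.42.0, limma 3.58.1 (voom on counts, and trend on log2 FPKM with pseudocounts of 1 and 0.1), other scalings, other filters on low counts, a replicate block and leaving out each library. Counts per base of the longest transcript were added after seeing the data.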

Additional observations from a re-analysis of the deposited data

How the results depend on the processing

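The direction of the summed kappa V level held under every alternative run, with a log2 ratio of 1.79 to 1.84 when 1 library was left out and 1.70 without Igkv1-117, a choice made after seeing the data. Segments called higher numbered 50 to 56 over the alternatives (51 to 53 without 1 library, 53 in the report). Segments called lower numbered 4 in the report, 7 with no filter on low counts, 2 by DESeq2, 6 on log2 FPKM and 3 or 4 without 1 library. Their members changed, and only Igkv4-50 and Igkv4-63 were called lower in every fit. Without 1 library, 2 to 4 of the segments called lower in the report were called lower. Igkv1-133, not tested in the reported fit, was called lower without carnosine library 1, 2 or 3 or saline library 3. With segments of at least 50% unique windows alone, also chosen after seeing the data, 46 of 60 tested were higher and 4 lower. Of 543 values of 32 named segments over the alternatives, 530 kept direction and call, 10 lost the call and 3 gained it.

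Over all genes, 2738 were called, and 1753 to 1892 without 1 library. For pairing, each gene's deviation in log2 CPM from its group mean was correlated between libraries of the 2 groups. Same-numbered libraries had correlations of these deviations of -0.05, -0.07 and 0.02. Differently numbered libraries had -0.02 to 0.07, so these values showed no pairing by replicate number. With the replicate number as a block, 1756 genes, 52 higher segments and 4 lower segments were called. Both kinds of fit had fewer degrees of freedom, and the reason for the lower number of genes called was not tested.

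The difference in effective number was -5.47 in the report, -5.93 to -5.003 without 1 library and -7.56 by the inverse Simpson number. It was -0.86 without Igkv1-117, the most counted segment of every carnosine library. The difference in share of the 5 most counted segments was 2.82 percentage points, 2.23 to 3.15 without 1 library, 1.88 with counts per base of the longest transcript, chosen after seeing the data, and -2.89 without Igkv1-117. The Igkv9 share turned to 0.25 points higher in carnosine by FPKM, and the Igkv8 difference moved to 3.35 points and the Igkv5 difference to -0.01. With counts per base of the longest transcript these 3 differences were -0.62, 5.59 and -1.72 points, so the moves come from the lengths behind the deposited FPKM.

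Genes outside the segments that turned sign were near 0 and never called, and the cause was not tested. With 1 library left out, the log2 fold changes ran from -0.090 to 0.21 for Xbp1, from -0.049 to 0.0092 for Stat5b, from -0.039 to 0.15 for Ptprc, from -0.045 to 0.090 for Tnfrsf13b, from -0.012 to 0.065 for Hmgb1, from -0.013 to 0.20 for Igll1, from -0.117 to 0.34 for S100a8 and from -0.061 to 0.35 for Klf1. Of the 26 segments that were not tested, 9 had no count in any library.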
